A study of Drosophila melanogaster with 6 samples.

Results

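Peptidoglycan recognition proteins (PGRPs) form the family through which flies detect bacterial cell wall. The 10 family genes described here (PGRP-SA, PGRP-SD, PGRP-LC, PGRP-LE, PGRP-LA, PGRP-LB, PGRP-SC1a, PGRP-SC2, PGRP-SB1 and PGRP-LF) were taken by their FlyBase symbols from 11922 gene identifiers, of which 13 were PGRP genes. RNA was sequenced from heads of wild-type (WT) Oregon-R virgin female flies, in 3 samples on a high-fat diet (HFD), made by adding coconut oil to the normal food, and 3 samples on the normal diet (ND), each kept on its diet for 5 days. All samples shared strain, genotype, sex and a labelled age of 5 days, each sample pooled the heads and attached tissues of several flies, and the comparison asked how the diet altered gene expression in the head. The head holds brain, eyes, fat body, blood cells and cuticle together. RNA of digestive proteases, made in the midgut, was also found, and was nearly absent only from ND replicate 3. Each value is therefore an average over all tissue collected.

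Peptidoglycan is the sugar and peptide mesh of the bacterial cell wall. Some PGRPs bind it and switch on the Toll or the Imd pathway, whose NF-kappaB factors drive genes for antimicrobial peptides. Others are amidases, enzymes that cut peptidoglycan into fragments with little activity and so lower the signal, and a few members lack both functions and tune the pathway. The members are given here as 5 sensing genes, 4 amidase genes and 1 inhibitor, although PGRP-LA, placed with the sensing genes, is thought to regulate Imd without binding peptidoglycan.

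All 10 genes were detected on both diets, and all 10 passed the filter of a mean of 0.5 FPKM (read fragments scaled by exon length and by the size of the library) over the 6 samples. Values were deposited as FPKM without counts, and the depth estimated from the steps of low values was 5335000 to 11865000 fragments on HFD and 8165000 to 10310000 fragments on ND. 2 libraries stood apart. ND replicate 3 correlated with the other 5 at r between 0.842 and 0.920 across genes and was nearly without digestive protease RNA, and HFD replicate 2, the shallowest library, correlated at 0.934 to 0.954 with the remaining 4, which correlated with each other at 0.971 to 0.979. The study describes the samples as biological replicates of pooled flies and neither it nor the labels say whether they were reared as separate cultures, so p-values measure only the spread between these samples. Neuron, photoreceptor and glia markers were present in every sample and the 4 male markers with values were listed at 0 throughout.

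On HFD, PGRP-SD, PGRP-SB1 and PGRP-LF had the clearest differences, a sensing gene, an amidase and the inhibitor. Each was higher on HFD with an unadjusted p under 0.05 in limma, 3 of 10 members, against 3.11% of the 8362 genes tested being higher by this rule. None of the 10 members passed an adjusted p of 0.05 (Benjamini-Hochberg over all genes tested in limma), a rule that 0.0478% of genes, 4 in number, passed. With a ratio of mean FPKM over 2 required besides the unadjusted p, 2 members were called, PGRP-SD and PGRP-SB1, against 0.682% of all genes. All 3 HFD samples lay above all 3 ND samples for 2 members, PGRP-SD and PGRP-LF, against 4.54% of all genes. They lay below all 3 ND samples for 0 members, and for 675 of 8362 genes. The log2 difference, HFD minus ND, was positive for all 10 members with a median of 0.66. Over all genes tested it was positive for 3579 of 8362, with a median of -0.03. Several of those positive values were close to 0 or rested on 1 library, as given for each gene. Without HFD replicate 2 and ND replicate 3, the libraries that stood apart, 1 of the 10 members, PGRP-SD, had an unadjusted p under 0.05 in limma, and 508 of 8368 genes were higher by that rule.

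**Figure D1:**
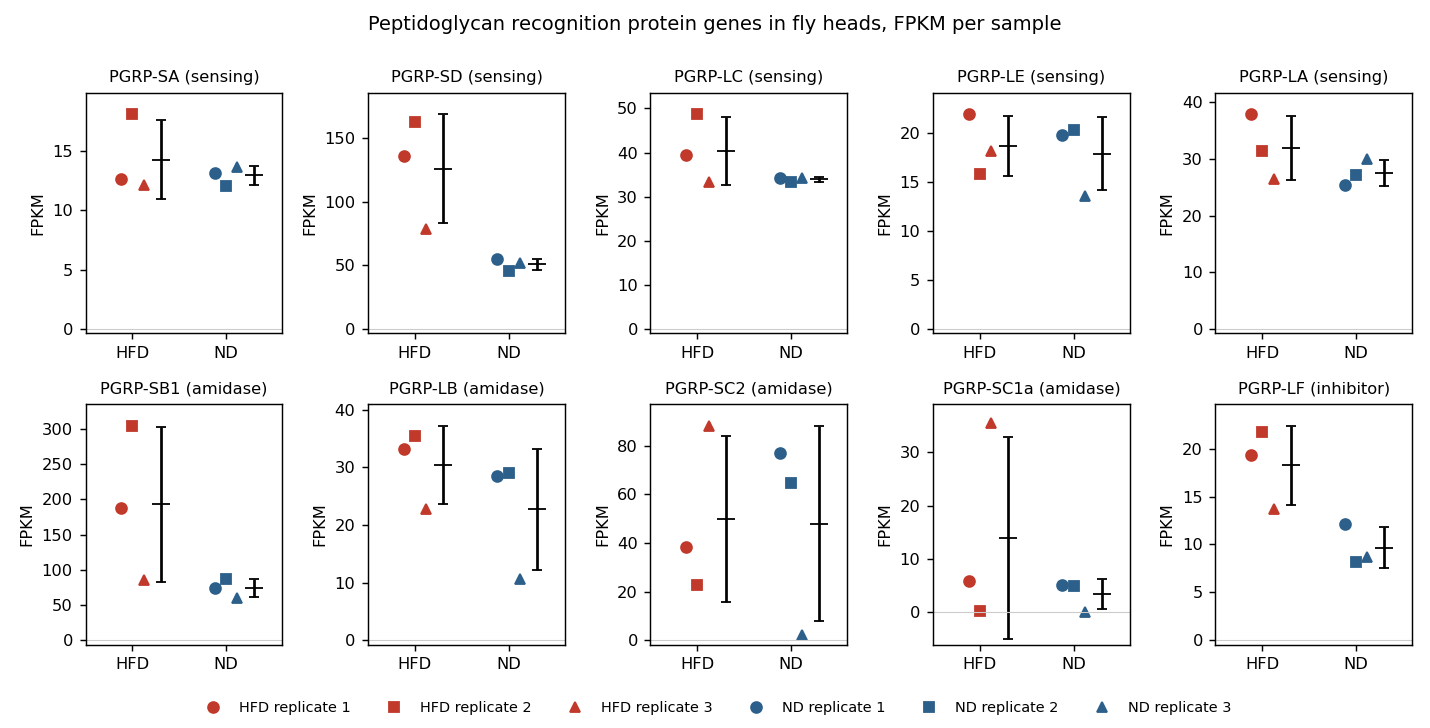
FPKM of the 10 PGRP genes in each of the 3 HFD (red) and 3 ND (blue) samples, with a panel per gene, its own linear axis, and a bar for the mean ± SD. PGRP-SD and PGRP-LF have every HFD sample above every ND sample, and the other 8 genes overlap.

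In order of level, PGRP-SB1 was highest on both diets, with a mean of 193 ± 109 FPKM on HFD and 73.8 ± 13.1 FPKM on ND (SD, n = 3 each). PGRP-SD, PGRP-SC2, PGRP-LC, PGRP-LA, PGRP-LB and PGRP-LE came next in that order by mean on both diets, and PGRP-SC1a was lowest. PGRP-LF stood above PGRP-SA on HFD, with means of 18.3 and 14.3 FPKM, and below it on ND, with means of 9.66 and 12.9 FPKM. Neighbours in this order often overlapped. On HFD the ranges of PGRP-SB1 (86.0 to 305 FPKM) and PGRP-SD (79.0 to 163 FPKM) overlapped, and on ND they did not, at 60.4 to 86.5 FPKM and 45.9 to 54.9 FPKM. FPKM is scaled by gene length, so these levels can be compared roughly. The lengths used are not known, and PGRP-LC, for one, has 10 transcripts of 1172 to 2579 nt. The places of PGRP-SC1a and PGRP-LF are less sure, as each shares sequence or exon with another gene.

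The first sensing gene, PGRP-SD (FBgn0035806; 3L:7651180-7651900, plus strand, a single exon in the BDGP6 annotation), encodes a secreted protein that takes part in the detection of bacteria upstream of Toll and also of Imd. Its level was 136, 163 and 79.0 FPKM in HFD replicates 1, 2 and 3, against 54.9, 45.9 and 51.9 FPKM in the ND replicates. Every HFD sample was above every ND sample, and HFD replicate 3 was the closest to them. The mean was 126 ± 42.9 FPKM on HFD and 50.9 ± 4.59 FPKM on ND (SD, n = 3 each), 2.48 times as high. The log2 difference was 1.23 (SE 0.27, 95% interval 0.56 to 1.90, limma unadjusted p = 0.0042, adjusted p = 0.443). The exact permutation test over samples, two-sided, gave p = 0.1, the smallest that 3 samples against 3 can give. Estimated fragments ranged over 627 to 872 on HFD and 270 to 386 on ND, so counting error was small beside the spread between HFD samples. PGRP-SD shares 35 bp of exon with CG7492 on the opposite strand, which had 21.7, 25.4 and 21.3 FPKM on HFD, against 24.6, 23.3 and 25.8 FPKM on ND. In bulk RNA of a head, more cells of a type and more RNA per cell cannot be told apart.

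PGRP-SA (FBgn0030310; X:11561643-11562779, plus strand) encodes the circulating sensor of Lys-type peptidoglycan that acts upstream of Toll. Its level was 12.6, 18.1 and 12.1 FPKM on HFD, against 13.1, 12.0 and 13.6 FPKM on ND. Only HFD replicate 2 lay outside the range of the others. Its log2 difference was 0.11 (95% interval -0.28 to 0.51, limma unadjusted p = 0.511, adjusted p = 0.998), and it was -0.06 without HFD replicate 2.

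PGRP-LC (FBgn0035976; 3L:9338810-9348336, plus strand) encodes the main membrane receptor of the Imd pathway. It had 39.4, 48.7 and 33.3 FPKM on HFD, against 34.2, 33.4 and 34.3 FPKM on ND. The ND samples were nearly equal, HFD replicates 1 and 2 lay above them and HFD replicate 3 just below. Its log2 difference was 0.23 (95% interval -0.12 to 0.58, limma unadjusted p = 0.157, adjusted p = 0.905), and it ranged with single samples left out over 0.09, without HFD replicate 2 (limma unadjusted p = 0.415), to 0.36, without HFD replicate 3 (limma unadjusted p = 0.0293).

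PGRP-LE (FBgn0030695; X:15801153-15803880, minus strand) encodes an Imd receptor that also acts inside cells. It had 21.9, 15.8 and 18.2 FPKM on HFD, against 19.8, 20.3 and 13.6 FPKM on ND, and the groups overlapped over most of their range. The log2 difference was 0.06 (95% interval -0.41 to 0.53, limma unadjusted p = 0.749, adjusted p = 0.998). Its sign changed when HFD replicate 1 was left out, to -0.05, and when ND replicate 3 was left out, to -0.11.

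PGRP-LA (FBgn0035975; 3L:9334332-9338336, plus strand) lies 473 bp before PGRP-LC. It had 37.9, 31.3 and 26.5 FPKM on HFD, against 25.5, 27.2 and 30.1 FPKM on ND, with HFD replicates 1 and 2 above all ND samples and HFD replicate 3 among them. A log2 difference of 0.19 was found (95% interval -0.16 to 0.55, limma unadjusted p = 0.234, adjusted p = 0.942). It was 0.07 without HFD replicate 1 and 0.31 without HFD replicate 3. PGRP-LA, PGRP-LC and PGRP-LF follow one another on the same strand of 3L.

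The inhibitor PGRP-LF (FBgn0035977; 3L:9349609-9351489, plus strand, 1272 bp after PGRP-LC) encodes a membrane protein without a signalling domain that holds back Imd activation through PGRP-LC. It had 19.3, 21.8 and 13.7 FPKM on HFD, against 12.1, 8.19 and 8.69 FPKM on ND. No samples overlapped, and HFD replicate 3 and ND replicate 1 were nearest to each other. The mean was 18.3 ± 4.14 FPKM on HFD and 9.66 ± 2.13 FPKM on ND (SD, n = 3 each), a ratio of 1.89. The log2 difference was 0.85 (SE 0.21, 95% interval 0.32 to 1.37, limma unadjusted p = 0.00789, adjusted p = 0.473), and the exact permutation p was 0.1. PGRP-LF shares 602 bp of exon with UGP on the opposite strand, and counting by strand was not stated, so fragments in that stretch cannot be told apart. UGP, an enzyme of UDP-glucose synthesis, had 182, 206 and 233 FPKM on HFD, against 190, 206 and 217 FPKM on ND. The part of UGP fragments in the PGRP-LF values was not tested.

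Among the amidases, PGRP-SB1 (FBgn0043578; 3L:16727299-16727989, minus strand) encodes a secreted enzyme known to be induced by infection. It had 187, 305 and 86.0 FPKM on HFD, against 74.5, 86.5 and 60.4 FPKM on ND. HFD replicates 1 and 2 were far above all ND samples, and HFD replicate 3 lay just under ND replicate 2. The ratio of means was 2.61 and the log2 difference 1.21 (SE 0.46, 95% interval 0.08 to 2.34, limma unadjusted p = 0.0394, adjusted p = 0.693), and the exact permutation p was 0.2. Leaving out any one sample other than HFD replicate 3 took its unadjusted p in limma above 0.05, to between 0.061 and 0.09997 in these 5 fits. Its log2 difference was 0.79 without HFD replicate 2 and 1.70 without HFD replicate 3.

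PGRP-LB (FBgn0037906; 3R:11452849-11460552, minus strand) encodes an amidase that dampens Imd signalling. It had 33.2, 35.4 and 22.8 FPKM on HFD, against 28.5, 29.0 and 10.6 FPKM on ND. ND replicate 3 was far below the other 5 samples, which overlapped. Its log2 difference was 0.51 (95% interval -0.51 to 1.52, limma unadjusted p = 0.264, adjusted p = 0.944), and without ND replicate 3 it was 0.06.

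PGRP-SC2 and PGRP-SC1a encode amidases best known from the gut, and lie close together on chromosome arm 2R. PGRP-SC2 (FBgn0043575) had 38.5, 22.9 and 88.2 FPKM on HFD, against 77.0, 64.4 and 2.11 FPKM on ND. PGRP-SC1a (FBgn0043576) had 5.83, 0.169 and 35.5 FPKM on HFD, against 5.02, 4.95 and 0 FPKM on ND. Both genes were highest in HFD replicate 3 and lowest in ND replicate 3. For PGRP-SC2 the diets overlapped between 22.9 and 77.0 FPKM, and for PGRP-SC1a HFD replicate 3 lay far above the 5 other samples, the next of which was HFD replicate 1 at 5.83 FPKM. For PGRP-SC2 the log2 difference was 0.80 (95% interval -2.48 to 4.08, limma unadjusted p = 0.569, adjusted p = 0.998). It was 1.01 for PGRP-SC1a (95% interval -2.41 to 4.42, limma unadjusted p = 0.495, adjusted p = 0.997). Without ND replicate 3, PGRP-SC2 was -0.70 (limma unadjusted p = 0.259), and without HFD replicate 3, PGRP-SC1a was -0.22. PGRP-SC1a and its close copy PGRP-SC1b had nearly the same values, with PGRP-SC1a 1.08 to 1.29 times PGRP-SC1b in the 5 samples above 0, and how reads shared by the 2 copies were assigned cannot be told.

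**Figure D2:**
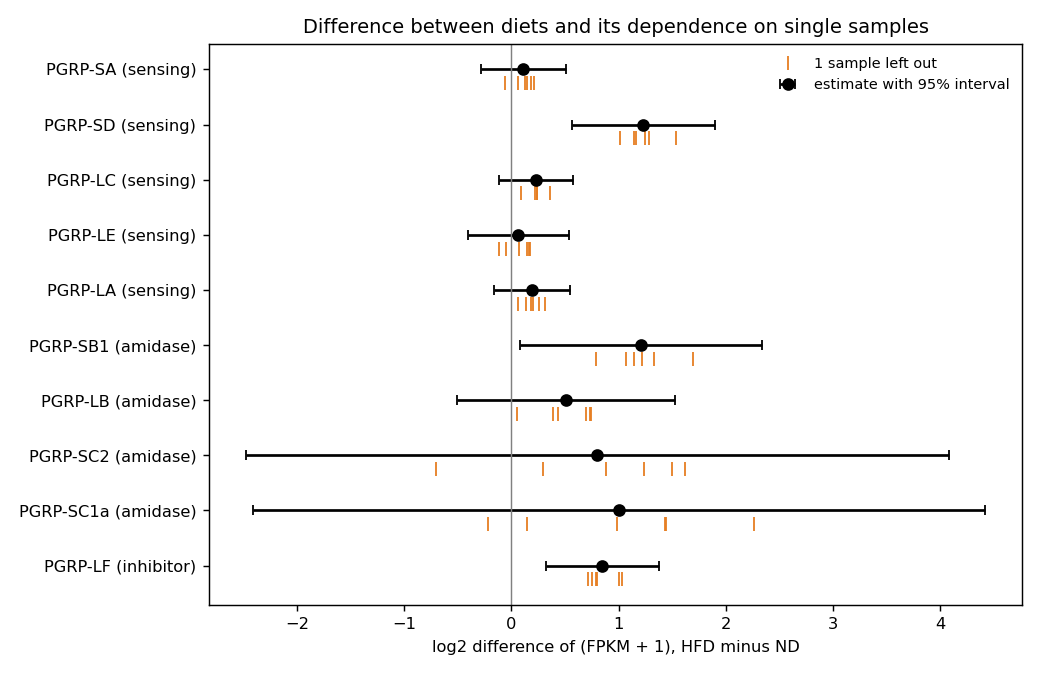
Log2 difference, HFD minus ND, of log2(FPKM + 1) for the 10 genes with 95% intervals from limma, and ticks for the value with each of the 6 samples left out in turn. The intervals of PGRP-SD, PGRP-LF and PGRP-SB1 lie above 0, and those of PGRP-SC1a and PGRP-SC2, -2.41 to 4.42 and -2.48 to 4.08, are the widest.

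The amidase genes differed in how their values ran with the amount of digestive protease RNA. The 27 trypsin and Jonah genes, made in the midgut, summed to 14581, 6348 and 21387 FPKM on HFD, against 21118, 21879 and 2.75 FPKM on ND, and 16 of them were at 0 in ND replicate 3. All 4 amidases were also lowest in ND replicate 3, as was 1 of the 5 sensing genes, PGRP-LE. PGRP-SB1 was only a little lower there, at 60.4 FPKM, than in ND replicate 1, at 74.5 FPKM. Per 1000 FPKM of these proteases, PGRP-SC2 had 2.64, 3.61 and 4.12 FPKM on HFD, against 3.65, 2.94 and 765 FPKM on ND. PGRP-SB1 had 12.9, 48.0 and 4.02 FPKM on the same scale on HFD, against 3.53, 3.95 and 21932 FPKM on ND. PGRP-SC1a had 0.400, 0.0266 and 1.66 FPKM on HFD, against 0.238, 0.226 and 0 FPKM on ND. PGRP-LB had 2.28, 5.58 and 1.07 FPKM on HFD, against 1.35, 1.33 and 3848 FPKM on ND. No amidase kept a fixed ratio to the proteases over all 6 samples, and ND replicate 3 had almost no protease RNA to divide by. Over the other 5 samples PGRP-SC2 varied least of the 4 genes, at 2.64 to 4.12 FPKM. PGRP-SC1a still ran over 0.0266 to 1.66 FPKM, PGRP-LB over 1.07 to 5.58 FPKM and PGRP-SB1 over 3.53 to 48.0 FPKM in those 5. With the mean log2 level of the proteases as a covariate, the log2 difference of PGRP-SC2 was 0.06 with an SE of 0.21, where the SE had been 1.33 without it. PGRP-SC1a was 0.43 with an SE of 1.01. PGRP-LB was 0.33 and PGRP-SB1 1.22 in that fit (limma unadjusted p = 0.290 and 0.0536). PGRP-SD was 1.28 and PGRP-LF 0.84 (limma unadjusted p = 0.00523 and 0.0132).

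**Figure D3:**
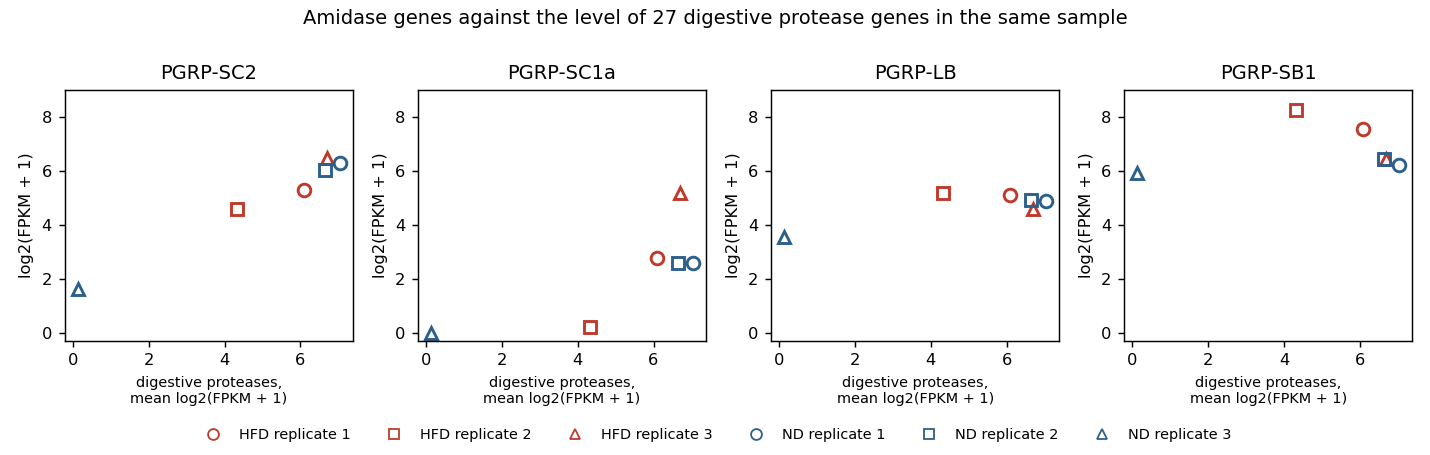
Log2(FPKM + 1) of the 4 amidase genes against the mean log2(FPKM + 1) of 27 digestive protease genes in the same sample, with HFD in red and ND in blue. PGRP-SC2 is lowest where the proteases are lowest, next lowest in HFD replicate 2 and highest in the samples with most protease RNA, whereas PGRP-SB1 is highest in HFD replicates 2 and 1, and HFD replicate 3 and ND replicate 2 nearly coincide in its panel.

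As groups, the 5 sensing genes had a median log2 difference of 0.19 and the 4 amidases 0.91, against -0.03 over all genes. In each group 1 gene was higher by an unadjusted p under 0.05 in limma, against 3.11% of all genes. The sensing median was the value of PGRP-LA. The amidase median lay between PGRP-SC2 and PGRP-SC1a, at 0.80 and 1.01, whose intervals were the widest. The amidase median rested most on ND replicate 3, and was 0.10 without it and 0.38 with the protease covariate, where the sensing median was 0.24 and 0.22. Without HFD replicate 3 the amidase median was 0.495 and the sensing median 0.31. The difference between the 2 groups was not tested. The summed level of the sensing genes was 248, 277 and 169 FPKM on HFD, against 147, 139 and 143 FPKM on ND. That of the amidases was 265, 363 and 233 FPKM on HFD, against 185, 185 and 73.1 FPKM on ND. Each sum was higher in every HFD sample than in any ND sample. PGRP-SD carried this for the sensing genes, and PGRP-SB1 for the amidases in HFD replicates 1 and 2. In HFD replicate 3 PGRP-SB1, at 86.0 FPKM, was just below its 86.5 FPKM in ND replicate 2. There PGRP-SC2 and PGRP-SC1a were at their highest, 88.2 and 35.5 FPKM. Without PGRP-SD the sensing sum was 112, 114 and 90.1 FPKM on HFD, against 92.6, 92.9 and 91.6 FPKM on ND. Without PGRP-SB1 the amidase sum was 77.5, 58.5 and 146 FPKM on HFD, against 111, 98.4 and 12.7 FPKM on ND, so the diets overlapped in both. PGRP-SB1 took 35.2%, 46.0% and 20.7% of the summed FPKM of the 10 genes on HFD, against 21.6%, 26.1% and 26.8% on ND.

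The antimicrobial peptide genes, which Toll and Imd switch on, were also highest in HFD replicates 2 and 1. Of 14 such genes, 13 had values and 11 were tested. All 11 had a positive log2 difference with a median of 2.02, where 3579 of 8362 genes were positive. By an unadjusted p under 0.05 in limma 5 of the 11 were higher and 0 lower, against 3.11% of all genes higher. None passed the adjusted p. AttB, an attacin, had 53.0, 133 and 29.8 FPKM on HFD, against 19.2, 8.74 and 6.68 FPKM on ND (log2 difference 2.40, limma unadjusted p = 0.00877, adjusted p = 0.480). AttA, its neighbour in the attacin family, had 10.2, 30.6 and 5.65 FPKM on HFD, against 3.27, 2.57 and 1.30 FPKM on ND (log2 difference 2.02, limma unadjusted p = 0.0151, adjusted p = 0.559). Mtk, metchnikowin, an antifungal peptide, had 1009, 1739 and 206 FPKM on HFD, against 147, 137 and 95.7 FPKM on ND (log2 difference 2.51, limma unadjusted p = 0.0189, adjusted p = 0.612). AttA and AttB are close copies, so reads may have been split between them. Every HFD sample was above every ND sample in these 3 genes, which were taken for their low p, and in 5 of the 11 tested, against 4.54% of all genes. In the other 6 the diets overlapped, as in Drs, drosomycin, chosen after its values were seen, with 349, 588 and 60.9 FPKM on HFD, against 169, 67.2 and 108 FPKM on ND.

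HFD replicate 2 was the highest, replicate 1 the next and replicate 3 the lowest of the HFD samples in all 11 antimicrobial peptide genes tested. The same order held in 6 of the 10 PGRP genes, PGRP-SA, PGRP-SD, PGRP-LC, PGRP-LB, PGRP-SB1 and PGRP-LF, a share of 60%, and in 23.4% of all genes tested. This order was chosen after the values were seen, so the shares describe it only. PGRP-SB1 stood at 2.54, 4.13 and 1.17 times its ND mean in HFD replicates 1, 2 and 3, PGRP-SD at 2.67, 3.20 and 1.55 times, and Mtk at 7.98, 13.8 and 1.63 times. HFD replicate 2 is one of the libraries that stood apart, and its part in this order was not tested. Without it PGRP-SD was 1.02 (limma unadjusted p = 0.011) and PGRP-LF 0.71 (limma unadjusted p = 0.0269).

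**Figure D4:**
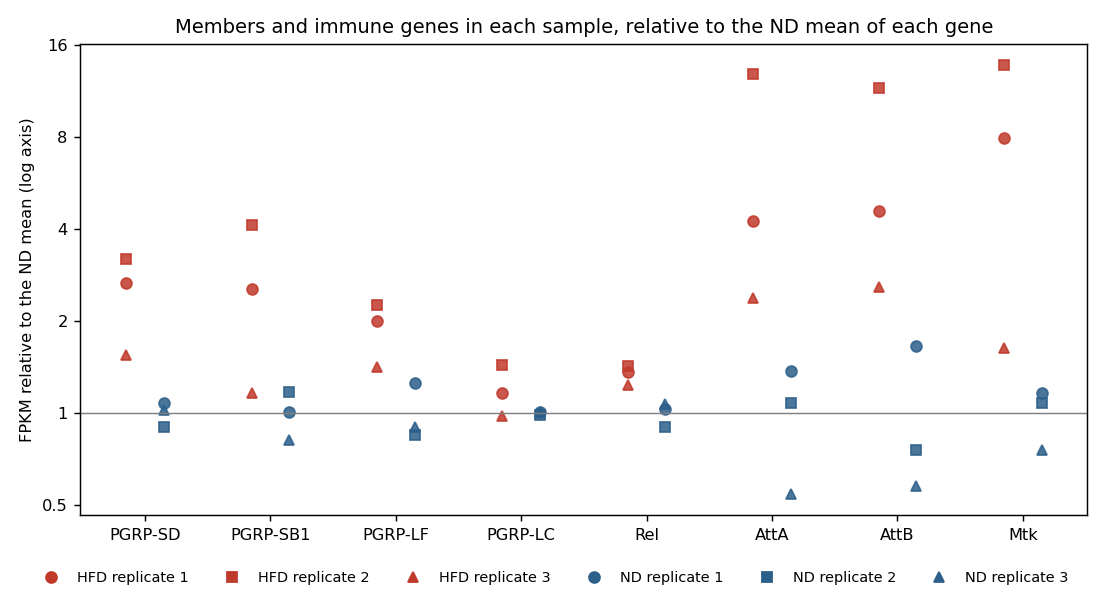
FPKM of 3 PGRP genes that were higher on HFD, of PGRP-LC, of Rel and of 3 antimicrobial peptide genes, each divided by its own ND mean, on a log axis, with HFD in red and ND in blue. HFD replicate 2 is the highest and HFD replicate 3 the lowest HFD sample in all 8 genes, and Mtk runs over 1.63 to 13.8 on HFD. The genes shown were picked, all but PGRP-LC for a low p. That order held in 6 of the 10 PGRP genes, 3 of 10 Imd signalling genes and 23.4% of all genes tested.

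Below the receptors of the Imd pathway, differences went both ways. Of 13 listed signalling genes 10 had values, 5 with a positive and 5 with a negative log2 difference, and their median was -0.01. By an unadjusted p under 0.05 in limma 1 was higher, against 3.11% of all genes. It was Rel, which encodes the NF-kappaB factor of the pathway. Rel had 76.9, 80.7 and 69.5 FPKM on HFD, against 58.2, 50.7 and 60.2 FPKM on ND, with no overlap (log2 difference 0.42, SE 0.10, limma unadjusted p = 0.00615, adjusted p = 0.473). In 2 other genes of the 10 every HFD sample lay below every ND sample. Over all genes tested, every HFD sample lay above in 380 and below in 675. Of 6 Imd inhibitors besides the PGRPs, 4 were positive and 2 negative and none had an unadjusted p under 0.05 in limma. The largest difference among them was that of pirk, a feedback inhibitor that binds the receptors, with 14.6, 9.94 and 14.5 FPKM on HFD, against 12.6, 11.9 and 5.70 FPKM on ND (log2 difference 0.39, limma unadjusted p = 0.258).

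On the Toll side, 11 of 12 genes for extracellular steps had values, 9 positive and 2 negative. By an unadjusted p under 0.05 in limma 1 was higher, against 3.11% of all genes. That gene was spirit, a serine protease of the cascade that cleaves the Toll ligand, with 17.5, 20.2 and 14.5 FPKM on HFD, against 10.3, 9.94 and 7.71 FPKM on ND and no overlap (log2 difference 0.83, limma unadjusted p = 0.00204, adjusted p = 0.407). Every HFD sample lay above every ND sample in 2 of the 11 and below in 0. Of 9 genes from the receptor inward, 6 were positive and 3 negative and none had an unadjusted p under 0.05 in limma. Every HFD sample lay above every ND sample in 1 of the 9 and below in 2. The receptor gene Tl had 16.4, 20.5 and 17.3 FPKM on HFD, against 14.6, 15.1 and 18.7 FPKM on ND (log2 difference 0.15, limma unadjusted p = 0.291).

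Fat body and blood cells are known sources of secreted immune proteins, and their markers were read in the same samples. The 7 of 9 fat body markers with values summed to between 35567 and 39078 FPKM on HFD and between 25865 and 33821 FPKM on ND. Most of each sum came from the yolk protein genes Yp1, Yp2 and Yp3. Their means were 16782, 7913 and 12062 FPKM on HFD, against 16033, 5804 and 7756 FPKM on ND. Lsp2 went the other way, with means of 90.7 FPKM on HFD and 353 FPKM on ND. Of 6 fat body markers tested in limma, 3 were higher (Yp2, Yp3 and to) and 1 lower (Lsp2) by an unadjusted p under 0.05. By that rule 260 of 8362 genes were higher and 301 lower. Fbp1 was near 0, at 0.0324 to 0.156 FPKM on HFD and 0.0298 to 0.0835 FPKM on ND. The 6 of 10 blood cell markers with values summed to 187 to 218 FPKM on HFD and 162 to 203 FPKM on ND, and the diets overlapped. The part of fat body RNA in the PGRP differences was not tested.

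Across the 6 samples, the genes whose log2(FPKM + 1) ran closest to PGRP-SD by Pearson r were CG32847, CG9733 and CG14191, at 0.998, 0.994 and 0.994. CG9733 had 12.3, 17.8 and 5.52 FPKM on HFD, against 2.93, 2.16 and 1.99 FPKM on ND, and the others were lower. The closest to PGRP-LF were svr, CG9747 and CG7294, at 0.989, 0.989 and 0.986. These 6 genes were chosen for the likeness over the same samples, so the values describe it only.

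The PGRP family genes outside the 10 were PGRP-SC1b, PGRP-LD and PGRP-SB2. PGRP-SC1b had 5.05, 0.148 and 27.4 FPKM on HFD, against 4.66, 4.004 and 0 FPKM on ND (log2 difference 0.93, limma unadjusted p = 0.499), a pattern that repeats that of PGRP-SC1a. PGRP-LD, whose function is less well known, had 10.3, 9.72 and 14.3 FPKM on HFD, against 10.8, 10.9 and 9.49 FPKM on ND (log2 difference 0.11, limma unadjusted p = 0.509). It shares exon with Pmi on the same strand and with Cralbp on the opposite one, so their reads cannot be told apart, and PGRP-SB2 was listed at 0 in all 6 samples.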

How the data were processed

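Poly(A) RNA from heads of 3 HFD and 3 ND samples was sequenced on Illumina instruments. The authors deposited FPKM per gene and sample, without counts. The deposited description calls the values RPKM and the methods FPKM, and they name different NEBNext kits. HISAT is named in the submitters' processing notes, and uniquely mapped reads were used. Build, annotation and strand setting are not given in the sources used here, so positions come from the BDGP6 annotation. Of 11922 identifiers 11794 matched a symbol, and the first row per identifier was used. No sample was left out.

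After a filter at a mean of 0.5 FPKM, genes were tested on log2(FPKM + 1), a scale that understates the change of low genes, with limma 3.58.1 (trend) in R 4.3.3 and Benjamini-Hochberg adjustment over the 8362 genes tested. The study's own rule was an unadjusted p under 0.05 with a fold change over 2, with no test named, and was applied to limma's p. Single genes also had a two-sided exact permutation test of mean FPKM over the 20 assignments of samples. Python 3.11.15, numpy 2.4.6, pandas 2.3.3, scipy 1.17.1 and matplotlib 3.10.9 were used, and the fit was tested on simulated data. A depth for each library was inferred from the spacing of low FPKM in 5638 single-transcript genes. At that depth 67.4% to 73.9% of low values came within 0.15 of whole fragments, where chance gives 30%, too few for a count test. With 3 samples a diet the number of samples limits the precision.

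All 10 members are named. Of the other PGRP, Imd, Toll and antimicrobial peptide genes, those with an unadjusted p under 0.05 are named, up to 3 a list by lowest p, otherwise the one with the largest difference. For the 2 members with the lowest p, the 3 genes closest in pattern are named. The members and lists were chosen with earlier results of these data known. List genes without values were not analysed here. The alternatives were other pseudocounts, filters, scalings, variance models and duplicate-row handling, a replicate block, a digestive protease covariate and leaving out single samples. A fit without HFD replicate 2 and ND replicate 3 was chosen after seeing the data.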

Additional observations from a re-analysis of the deposited data

How the results depend on the processing

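No member passed an adjusted p of 0.05 in any of the 17 alternatives, where adjusted p in limma for PGRP-SD ranged over 0.123 to 0.9999. PGRP-SD had an unadjusted p under 0.05 in 17 of 17 (log2 difference 1.02 to 1.53), PGRP-LF in 16 of 17 (0.65 to 1.03) and PGRP-SB1 in 9 of 17 (0.66 to 1.70). Over all genes, 4 passed the adjusted p, and the count was 7 with median-ratio scaling, 1 with unmoderated variance, 44 with the digestive protease covariate, 12 without HFD replicate 2 and ND replicate 3, and 1 to 5 with single samples left out. The number of members with an unadjusted p under 0.05 was 3 in the reported fit. It was 4 without HFD replicate 3 and 2 without any other single sample. It was also 2 with unmoderated variance and with the digestive protease covariate, and 1 without HFD replicate 2 and ND replicate 3. Over all genes, 173 to 572 were higher by that rule with single samples left out, and 508 of 8368 without HFD replicate 2 and ND replicate 3. Median-ratio scaling gave 378 genes higher and 247 lower at an unadjusted p under 0.05 in limma, where the reported fit gave 260 and 301.

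Of 170 values of single members under alternatives, 160 kept their direction and 10 changed it, all in PGRP-LB, PGRP-LE, PGRP-SA, PGRP-SC1a and PGRP-SC2. Without HFD replicate 2 and ND replicate 3, PGRP-LB was -0.062, PGRP-LE -0.0059, PGRP-SA -0.023 and PGRP-SC2 -0.27. With the digestive protease covariate PGRP-LE was -0.026. With single samples left out, PGRP-LE ranged over -0.11 to 0.17, PGRP-SA over -0.059 to 0.21, PGRP-SC1a over -0.22 to 2.26 and PGRP-SC2 over -0.70 to 1.62. The cause was not tested.

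Replicate numbers are shared between diets, but the study does not describe pairs, so the numbers were not taken to pair the samples. Deviations of same-numbered samples from their diet means correlated at 0.31, -0.51 and -0.36. With HFD replicate 2 and ND replicate 3 standing apart, these values cannot tell whether same-numbered samples were prepared together. With the replicate block 1 gene passed the adjusted p, and 382 genes had an unadjusted p under 0.05 in limma, where the reported fit gave 561. Estimated fragments were fewest for PGRP-SC1a, 0 to 248, which limits what its values can show.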

Other observations

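Uev1A, of the Imd signalling list, was at 3.05 times its ND mean in HFD replicate 2 and at 0.865 and 0.909 times in HFD replicates 1 and 3, and the 3 ND samples were at 0.982 to 1.01 times. It was singled out after its values were seen. PGRP-LC, which encodes the receptor, took 7.41%, 7.35% and 8.02% of the summed FPKM of the 10 PGRP genes on HFD, against 9.93%, 10.1% and 15.2% on ND, where ND replicate 3 had the lowest sum of the 10 genes, 225 FPKM.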
